A study of Mus with 6 samples.

Results

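The mitochondrial chromosome of the mouse carries a small set of protein-coding genes, and 10 of them were followed in pancreatic tumors. They were taken by Ensembl ID from the 15646 genes of the deposited count table, and all 10 were listed and passed the filter on low counts, which left 14348 genes. The symbols are those given with the IDs when the genes were chosen. Those for complex I are mt-Nd1, mt-Nd2, mt-Nd4, mt-Nd5 and mt-Nd6. mt-Cytb encodes the cytochrome b subunit of complex III, mt-Co1, mt-Co2 and mt-Co3 encode subunits of complex IV, and mt-Atp6 encodes a subunit of complex V.

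The tumors were orthotopic, that is, grown from cells placed in the pancreas, and the cells were KPC1199, a line of mouse pancreatic ductal adenocarcinoma (PDAC). The first set of hosts was genetically obese, ob/ob, a strain without functional leptin (libraries obese 1, 3 and 4). The other set was lean wild type, WT (libraries lean 1, 2 and 3), and the same tumor line was used in both. Titles that start with OB were taken as obese and those that start with ND as lean, since the design text names only these kinds of host; ages, sexes and the time of tumor growth are not stated. Total RNA depleted of ribosomal RNA was sequenced, so the counts come from tumor cells and host cells together. In such bulk tissue, fewer cells of a type and less RNA per cell cannot be told apart.

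The respiratory chain passes electrons from complexes I and II through III to IV and uses the released energy to pump protons, which complex V then uses to make ATP. Most of its subunits are encoded in the nucleus and imported, but core subunits that hold redox centers or proton channels are encoded in the mitochondrion. There, long precursor RNAs are transcribed from both strands and cut, largely at the tRNAs between the genes, so that genes copied together can still differ in the amount of mature RNA. Of the protein-coding genes, mt-Nd6 alone lies on the strand opposite to the rest.

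The libraries held between 7122533 and 8521244 counts. Levels are given in CPM, that is, counts relative to a library size scaled by TMM factors (trimmed mean of M values), and groups were compared with edgeR's quasi-likelihood test, with Benjamini-Hochberg adjustment over all genes tested and a threshold of 0.05. The labelled tissue was not checked against marker genes, and the nuclear subunits of the chain were not analysed, because 0 of the 15646 IDs were matched to a symbol in the reference table. Whether the libraries of a group are from different animals is not labelled; the p-values below rest on the spread of these samples alone, and that spread may be technical. Lean 3 stood apart for most of the 10 genes, so the main values that depend on it are also given without this library.

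No difference between hosts passed the test for any of the 10 genes. In the edgeR test 0 of 10 passed the adjusted threshold, while 20.8% of all genes tested did (2991 genes, 1474 higher and 1517 lower in obese hosts; 1797 higher and 1170 lower with scaling by total counts only). At an unadjusted p under 0.05, 2 of the 10 were counted, mt-Nd1 and mt-Nd2, with opposite signs, where 36.2% of all genes tested were. DESeq2 and limma-voom also called 0 of 10. The fitted log2 fold change, obese over lean, was positive for 3 genes and negative for 7, with a median of -0.12, beside a median of 0.01 over all genes tested.

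**Figure D1:**
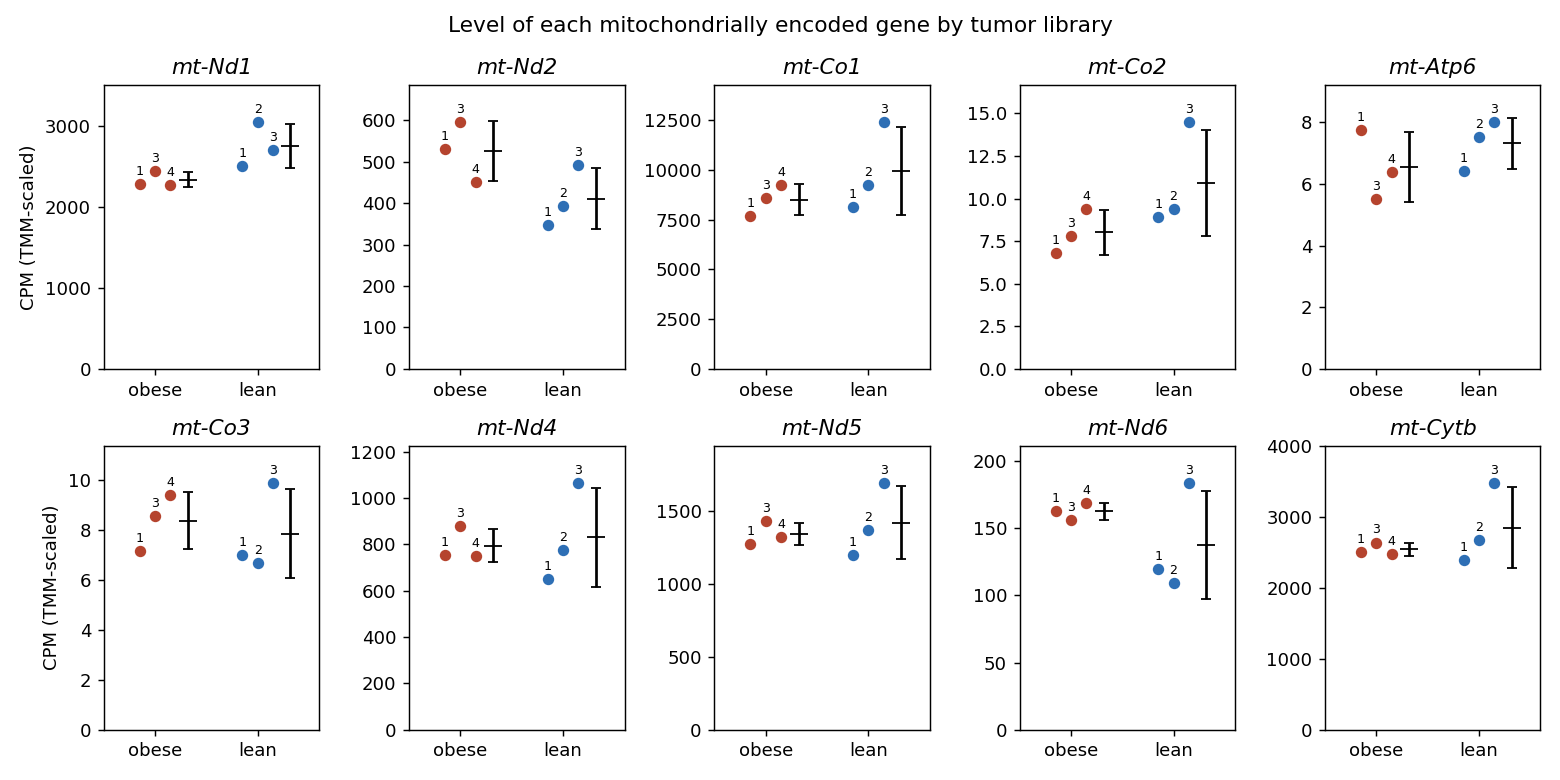
Level of each of the 10 genes in CPM on linear axes that start at 0, in the obese (red) and lean (blue) libraries, numbered as in their titles; the black bar is the mean with its SD (n = 3). The groups are apart for mt-Nd1 only, and lean 3 is the highest of the 6 libraries for 8 of the 10 genes.

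Complex I, the entry point for electrons from NADH, held both of the genes closest to the threshold. mt-Nd1 (ENSMUSG00000064341, chromosome MT, 2751 to 3707), a membrane subunit next to the quinone site, had 2286, 2438 and 2272 CPM in obese 1, 3 and 4, against 2499, 3046 and 2703 CPM in lean 1, 2 and 3. It was the only one of the 10 genes whose groups did not overlap, every obese library lying below every lean library; groups that do not overlap were found for 40.3% of all genes tested. The fitted fold was 0.848 (log2 -0.24, SE 0.11, 95% interval of the fold 0.720 to 0.999), which did not pass the test (edgeR adjusted p = 0.136). With 1 library left out, the log2 fold change lay between -0.30 without lean 1 (edgeR adjusted p = 0.0929) and -0.16 without lean 2 (edgeR adjusted p = 0.412).

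mt-Nd2 (ENSMUSG00000064345, MT, 3914 to 4951), a proton-pumping membrane subunit, had 531, 596 and 451 CPM in obese 1, 3 and 4, against 347, 394 and 491 CPM in lean 1, 2 and 3. Here lean 3 lay above obese 4, and the other obese libraries lay above all lean ones. Its log2 fold change was 0.36 (SE 0.14, 95% interval 0.04 to 0.67, edgeR adjusted p = 0.0964), the largest positive value of the 10. The gene passed the threshold without lean 3 (log2 0.50, edgeR adjusted p = 0.0496), and in no other fit that left out 1 library.

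mt-Nd4 and mt-Nd5, related antiporter-like subunits of the proton-pumping arm, had fitted differences near 0. mt-Nd4 (ENSMUSG00000064363, MT, 10167 to 11544) had 756, 878 and 749 CPM in the obese libraries 1, 3 and 4, against 649, 775 and 1066 CPM in the lean libraries 1, 2 and 3, so that the obese range lay inside the lean one. Its log2 fold change was -0.06 (SE 0.16, edgeR adjusted p = 0.810); without lean 3 it was 0.16, and with scaling by total counts only it was 0.00292. mt-Nd5 (ENSMUSG00000064367, MT, 11742 to 13565) had 1277, 1430 and 1322 CPM in the obese libraries 1, 3 and 4, against 1197, 1373 and 1695 CPM in the lean libraries 1, 2 and 3. Again the lean libraries spanned the obese ones, with a log2 fold change of -0.08 (SE 0.13, edgeR adjusted p = 0.682) that was 0.06 without lean 3.

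mt-Nd6 (ENSMUSG00000064368, MT, 13552 to 14070), the complex I subunit gene of the opposite strand, had 163, 156 and 169 CPM in obese 1, 3 and 4, against 120, 109 and 184 CPM in lean 1, 2 and 3. All obese libraries lay above lean 1 and 2 and below lean 3. The log2 fold change was 0.24 (SE 0.17, 95% interval -0.13 to 0.62, edgeR adjusted p = 0.329). It rested on single lean libraries: it was 0.51 without lean 3, which passed the threshold (edgeR adjusted p = 0.0286), but 0.10 without lean 2 (edgeR adjusted p = 0.746) and 0.15 without lean 1 (edgeR adjusted p = 0.611). The annotated mt-Nd6 overlaps mt-Nd5 by 14 bases, and strand handling during counting is not given in the sources used here, so reads of the opposite strand cannot be told apart from those of mt-Nd6.

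For complex III, mt-Cytb (ENSMUSG00000064370, MT, 14145 to 15288), the subunit that holds the quinone sites of the complex, had 2510, 2638 and 2473 CPM in obese 1, 3 and 4, against 2390, 2676 and 3481 CPM in lean 1, 2 and 3. Lean 1 lay below and lean 2 and 3 lay above all obese libraries. The log2 fold change of -0.17 (SE 0.14, edgeR adjusted p = 0.412) became 0.00252 without lean 3.

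Complex IV hands electrons to oxygen. mt-Co1 (ENSMUSG00000064351, MT, 5328 to 6872), its catalytic subunit and the gene with the most counts of the 10, had 7690, 8569 and 9248 CPM in obese 1, 3 and 4, against 8147, 9217 and 12405 CPM in lean 1, 2 and 3. Only lean 3 stood outside the range of the obese libraries, and it stood above it. The log2 fold change was -0.22 (SE 0.16, 95% interval -0.57 to 0.12, edgeR adjusted p = 0.336), and -0.03 without lean 3.

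The other complex IV genes and mt-Atp6, the proton channel subunit of complex V, had few counts, between 45 and 116 in any library. mt-Co2 (ENSMUSG00000064354, MT, 7013 to 7696), which receives electrons from cytochrome c, had 58, 64 and 78 counts in obese 1, 3 and 4, against 75, 66 and 116 counts in lean 1, 2 and 3. The groups overlapped, and the log2 fold change of -0.45 had an SE of 0.25 (95% interval -1.01 to 0.11, edgeR adjusted p = 0.228). Without lean 3 it was -0.19.

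mt-Co3 (ENSMUSG00000064358, MT, 8607 to 9390), a core subunit without a redox center, had 61, 70 and 78 counts in obese 1, 3 and 4, against 59, 47 and 79 counts in lean 1, 2 and 3. mt-Atp6 (ENSMUSG00000064357, MT, 7927 to 8607) had 66, 45 and 53 counts in the obese libraries 1, 3 and 4, against 54, 53 and 64 counts in the lean libraries 1, 2 and 3. Their groups overlapped as well, with log2 fold changes of 0.09 for mt-Co3 (SE 0.25, edgeR adjusted p = 0.823) and -0.16 for mt-Atp6 (SE 0.25, edgeR adjusted p = 0.681). The value for mt-Co3 turned negative without obese 4 (-0.0035) or lean 2 (-0.01) and was 0.29 without lean 3. The value for mt-Atp6 lay between -0.30 without obese 1 and -0.04 without obese 3. A count of 45 alone has an exact Poisson 95% interval of 32.8 to 60.2, which covers counting error only.

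**Figure D2:**
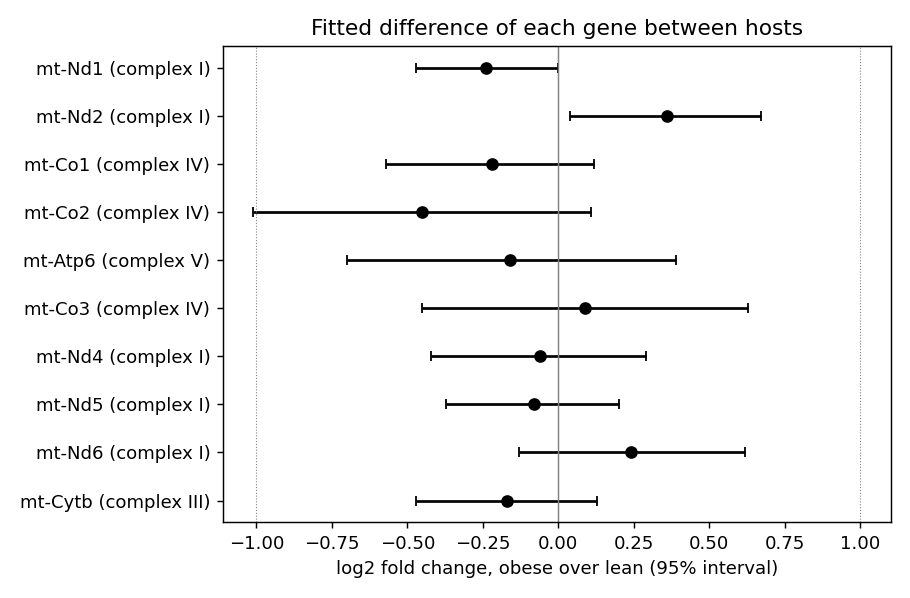
Log2 fold change of each gene, obese over lean, from edgeR's quasi-likelihood fit (points) with its 95% interval (bars), in order along the mitochondrial chromosome. Dotted lines mark a 2-fold difference; intervals are wider for mt-Co2, mt-Atp6 and mt-Co3, which had at most 116 counts in a library.

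The intervals bound what could have been missed only as far as the spread of these samples, which may be technical, stands for that between hosts. For 9 of the 10 genes the 95% interval lay within a 2-fold difference in either direction, and for 5 of the 10 it lay within 1.5-fold. The exception at 2-fold was mt-Co2, whose interval reached a fold of 0.497. A p above the threshold therefore leaves differences of moderate size possible for each gene, and does not show that the hosts had equal levels.

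The summed level of the 10 genes was 15234, 16727 and 16709 CPM in obese 1, 3 and 4, against 15371, 17614 and 22058 CPM in lean 1, 2 and 3. The obese libraries stood close together and the lean ones were spread, with means of 16223 ± 857 CPM in obese and 18348 ± 3403 CPM in lean hosts (SD, n = 3 each). The difference of the log2 sums was -0.16 (exact permutation test, two-sided, p = 0.4, where 3 against 3 libraries cannot go below 0.1). It was -0.02 without lean 3 and -0.28 without lean 1, the extremes when 1 library was left out. By complex, the summed level averaged 5158 ± 296 CPM in obese and 5549 ± 676 CPM in lean hosts for complex I, and 8519 ± 783 CPM in obese and 9942 ± 2220 CPM in lean hosts for complex IV (SD, n = 3 each; exact permutation test, p = 0.5 for either). Without lean 3, the log2 difference was -0.02 for complex I and -0.03 for complex IV.

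Lean 3 had the highest summed level. It was the highest library for 8 of the 10 genes, the exceptions being mt-Nd1 (highest in lean 2) and mt-Nd2 (highest in obese 3); over all genes tested, lean 3 was the highest library for 16.5%. Its log2 CPM lay 0.09 to 0.66 above the mean of the 6 libraries, with a median of 0.31 over the 10 genes, while the corresponding median lay between -0.18 and 0.02 in the other libraries. Lean 1 was the lowest library for 4 of the 10 genes.

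**Figure D3:**
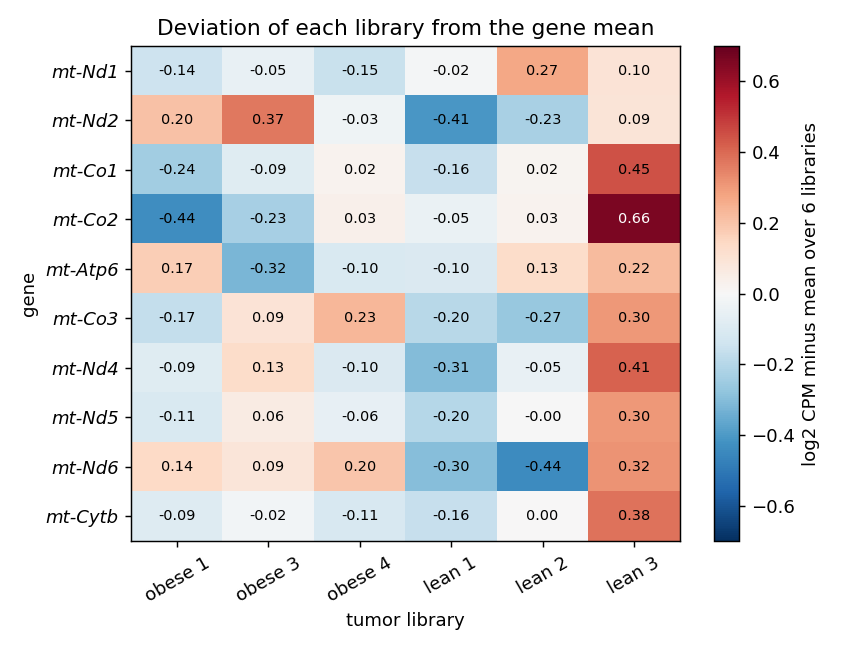
Log2 CPM of each gene (rows) in each library (columns) minus the gene's mean over the 6 libraries; red is above and blue below that mean. The lean 3 column is above the mean for all 10 genes, from 0.09 to 0.66, and is the highest in every row except mt-Nd1 and mt-Nd2.

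The spread within groups is given as a description, without a test. The coefficient of variation was larger in lean than in obese hosts for 9 of the 10 genes, with a median of 9.19% in obese and 21.1% in lean hosts; over all genes tested it was larger in lean hosts for 49.7%. This rested on lean 3: between lean 1 and 2 alone the median was 8.87%, and 5 of the 10 genes had the larger value in lean hosts. The exception was mt-Atp6, with 17.2% in obese and 11.2% in lean hosts. Over all genes tested the medians with all libraries were 13.7% in obese and 13.6% in lean hosts. Between lean 1 and 2 alone, the lean median over all genes tested was 11.7%, and 43.6% had the larger value in lean hosts. A value from 2 libraries is here set against one from 3. mt-Nd6 had 163 ± 6.29 CPM in obese and 137 ± 40.5 CPM in lean hosts (SD, n = 3 each).

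Ratios between the genes within a library do not depend on library scaling. For every 100 counts of the other 9 genes, all transcribed from the opposite strand, mt-Nd6 had 1.08, 0.944 and 1.02 counts in obese 1, 3 and 4, against 0.787, 0.621 and 0.840 counts in lean 1, 2 and 3. Every obese library lay above every lean library, lean 3 included. Set over the summed 10 genes, 29.3% of the other 14338 genes tested also had groups that did not overlap. Those ratios carry the changes of the summed level between libraries, so this share is not a like background. For mt-Nd6 the difference was 0.45 on the log2 scale (exact permutation test, two-sided, p = 0.1, the smallest possible with 3 against 3). It lay between 0.32 and 0.54 when 1 library was left out. Of the counts of the 10 genes, mt-Co1 alone made up from 50.5% in obese 1 to 56.2% in lean 3, so it dominates this ratio. With the 9 genes weighted equally, by the mean of their log2 counts, the difference was 0.37 (exact permutation test, two-sided, p = 0.1). Set against its neighbor mt-Nd5 alone, mt-Nd6 averaged 12.2 ± 1.06 counts per 100 in obese and 9.59 ± 1.51 in lean hosts (SD, n = 3 each). In this ratio the groups nearly touched, with obese 3 at 10.9 and lean 3 at 10.8 counts per 100.

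The balance of complex IV against complex I did not separate the hosts. mt-Co1, mt-Co2 and mt-Co3 together had 159, 161 and 193 counts for every 100 of mt-Nd1, mt-Nd2, mt-Nd4 and mt-Nd5 in obese 1, 3 and 4, against 174, 165 and 209 in lean 1, 2 and 3. The groups overlapped, and the difference was -0.09 on the log2 scale (exact permutation test, two-sided, p = 0.5). Almost all of these complex IV counts were of mt-Co1.

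The same ratio was then computed for each gene over the other 9, a choice made after the levels had been seen. The groups did not overlap for 4 of the 10 genes, mt-Nd2, mt-Co3, mt-Nd5 and mt-Nd6, all higher in obese hosts, beside 29.3% of the other 14338 genes tested when set over the summed 10. That share is not a like background, since those ratios carry changes of the summed level that largely cancel within the 10. For each of the 4 genes the exact permutation test gave p = 0.1, the smallest possible, and 0.25 after Benjamini-Hochberg adjustment over the 10 ratios. mt-Nd2 had 3.61, 3.69 and 2.77 counts per 100 of the others in obese 1, 3 and 4, against 2.31, 2.29 and 2.28 in lean 1, 2 and 3. The lean libraries were nearly identical in this ratio, although their mt-Nd2 levels ranged from 347 to 491 CPM. For mt-Nd5 the difference was small, with 9.03 ± 0.394 counts per 100 in obese and 8.41 ± 0.0723 in lean hosts (SD, n = 3 each). For mt-Co3 the closest libraries were obese 1 at 0.047 and lean 1 at 0.0456 counts per 100, from 61 and 59 counts. The lowest mt-Co3 count, 47 in lean 2, has an exact Poisson 95% interval of 34.5 to 62.5. No interval was computed for obese 1 or lean 1, and nothing is drawn from the small gap between them.

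**Figure D4:**
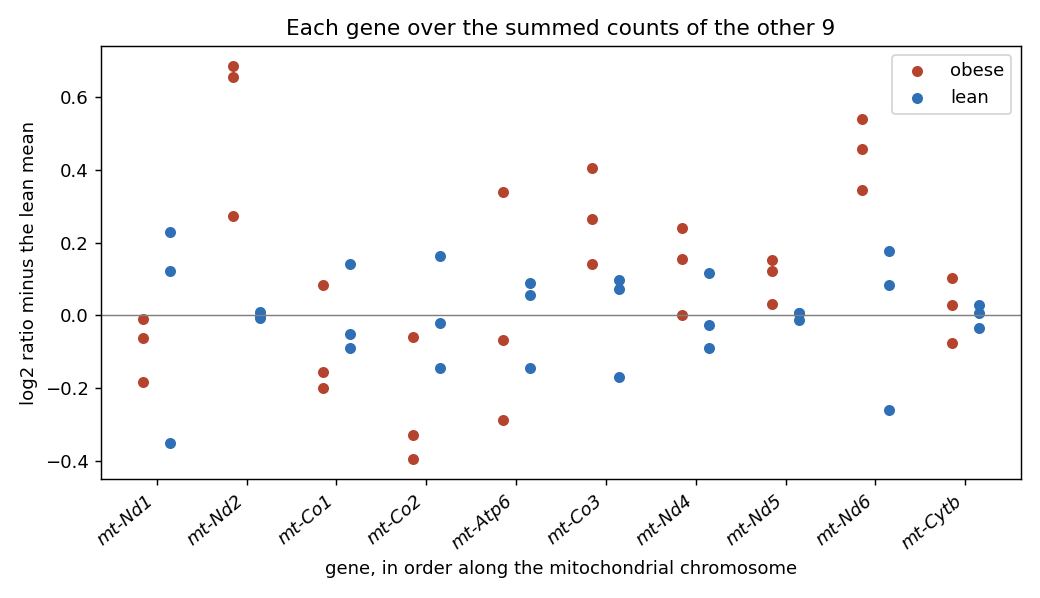
Log2 ratio of each gene's counts to the summed counts of the other 9, minus the mean of the lean libraries, for obese (red) and lean (blue) libraries. Obese and lean points are apart for mt-Nd2, mt-Co3, mt-Nd5 and mt-Nd6.

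mt-Nd2 and mt-Nd1 are neighbors on the chromosome and are copied together, and their fitted differences between hosts had opposite signs. The pair was singled out after its values had been seen, and its ratio is given without a test. mt-Nd2 had 23.2, 24.4 and 19.9 counts for every 100 of mt-Nd1 in obese 1, 3 and 4, against 13.9, 12.9 and 18.2 in lean 1, 2 and 3. The groups did not overlap. How often the ratios of other gene pairs separate the groups was not tested. The separation of this chosen pair therefore has no background share beside it, and no conclusion is drawn from it. The distance between obese 4 and lean 3 was the smallest between the groups.

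Levels of different genes were compared per length, in CPM per kilobase of the gene as annotated in RefSeq for GRCm38.p6. mt-Co1 was highest, at 5503 ± 505 CPM per kilobase in obese and 6423 ± 1434 in lean hosts (SD, n = 3 each). mt-Nd1 followed with 2437 ± 96.1 in obese and 2873 ± 289 in lean hosts, and mt-Cytb with 2221 ± 75.4 in obese and 2491 ± 494 in lean hosts. The ranges of mt-Nd1 and mt-Cytb over the 6 libraries overlapped, and mt-Nd1 was the higher of this pair in 5 of 6 libraries.

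A middle tier was formed by mt-Nd5, mt-Nd4, mt-Nd2 and mt-Nd6, with means over the 6 libraries of 758, 589, 451 and 289 CPM per kilobase. The ranges of neighbors in this tier overlapped, but within each of the 6 libraries the order was the same. mt-Nd1 thus exceeded its neighbor mt-Nd2 5.89-fold per kilobase, and mt-Nd5 exceeded mt-Nd6 2.62-fold.

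mt-Co2, mt-Co3 and mt-Atp6 stood far below, with means of 13.8, 10.4 and 10.2 CPM per kilobase. The step from mt-Co1 to the adjacent mt-Co2 was 431-fold per kilobase (means over the 6 libraries). mt-Co2 was above mt-Co3 in 6 of 6 libraries. mt-Co3 was above mt-Atp6 in 3 of 6 libraries, so mt-Co3 and mt-Atp6 had no order between them. Together mt-Co2, mt-Atp6 and mt-Co3 made up 0.142% of the counts of the 10 genes (mean over 6 libraries), while mt-Co1, mt-Cytb, mt-Nd1 and mt-Nd5 made up 91.5%.

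**Figure D5:**
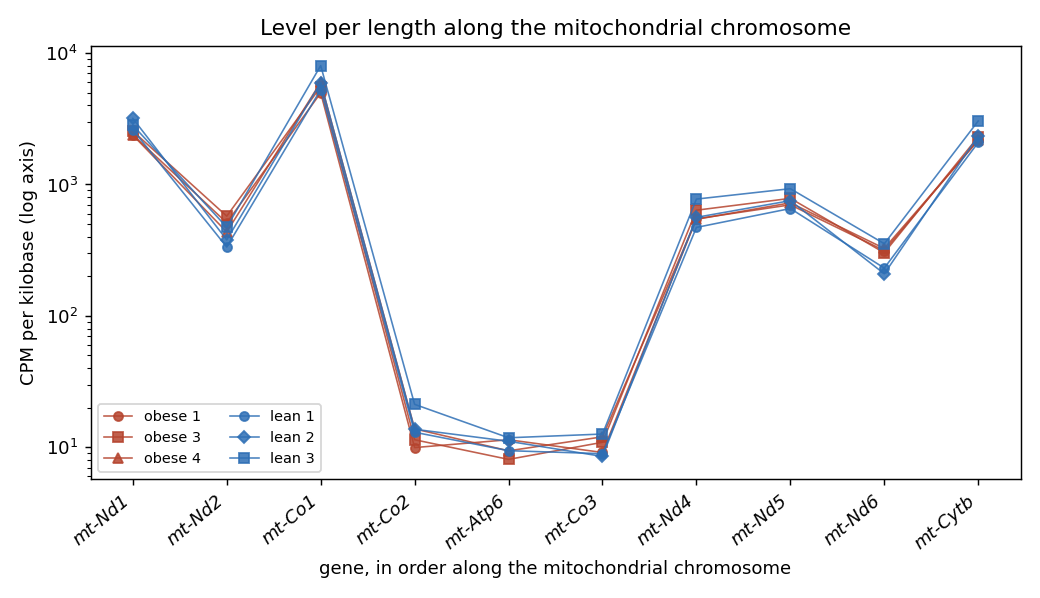
CPM per kilobase (log axis) of the 10 genes in their order along the mitochondrial chromosome, 1 line per library, obese in red and lean in blue. All 6 libraries drop to between 8.08 and 21.2 CPM per kilobase at mt-Co2, mt-Atp6 and mt-Co3 and return to between 471 and 774 at mt-Nd4.

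These 3 genes lie next to each other, and for part of their stretch pseudogenes are annotated in the nuclear genome. In the RefSeq table for GRCm38.p6, the pseudogene Gm10925 on chromosome 1 (24613971 to 24614651) has mt-Atp6 among its synonyms and the same length as mt-Atp6, 681 bases. A second pseudogene, Gm10222 (chromosome 1, 24612404 to 24612700), has the length of mt-Nd4l, 297 bases. The higher-numbered ends of these pseudogenes are 1951 bases apart, and the starts of mt-Atp6 and mt-Nd4l on the mitochondrial chromosome are 1950 bases apart. mt-Co3 lies between mt-Atp6 and mt-Nd4l. These annotations do not show how far a nuclear copy extends, toward mt-Co2 or the other genes, and this was not tested. How reads that match both places were counted is not given in the sources used here, so the levels of mt-Co2, mt-Atp6 and mt-Co3 are uncertain, and the part of these pseudogenes in their low counts was not tested. RefSeq lists 13 protein-coding genes on the chromosome; mt-Atp8 (7766 to 7969), mt-Nd3 (9459 to 9806) and mt-Nd4l (9877 to 10173), which lie in or beside the same stretch, were not analysed here.

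Each gene was compared with the summed level of the other 9 over the 6 libraries. mt-Cytb and mt-Nd5 followed it most closely, with root mean square differences of 0.057 and 0.063 between the centered log2 profiles. mt-Nd2 and mt-Nd6 followed it least, at 0.301 and 0.267. Among the 9640 other genes that averaged 10 CPM or more, the profiles nearest to the summed level of all 10 were those of ENSMUSG00000017299.13 (0.04) and ENSMUSG00000033526.16 (0.044), which have no symbol in the tables used here. ENSMUSG00000017299.13 had 27.7, 30.6 and 28.5 CPM in obese 1, 3 and 4, against 27.9, 30.7 and 38.0 CPM in lean 1, 2 and 3. Its log2 fold change was -0.16 (edgeR adjusted p = 0.496). Because the gene was picked out of 9640 for its likeness to the summed level, its high value in lean 3 and its fold change follow from that choice. They are not a separate result.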

How the data were processed

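QIAzol-extracted total RNA, freed of ribosomal RNA, was made into libraries, per the labels' protocols. The authors deposited raw counts per gene for 6 libraries. The submitters' processing notes name the build GRCm38 and the tools CASAVA, STAR and Subread, with no versions. How strand and reads with several matches were treated is not given in the sources used here. All 6 count columns carried a sample's title, and 0 were left unmapped.

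The analysis of the counts used edgeR 4.0.16 (R 4.3.3): default expression filter (minimum count 10, minimum total 15), TMM factors, quasi-likelihood F test, two-sided, no covariates, tested on simulated data. The SE is the log2 fold change divided by the square root of F; 95% intervals use the test's own degrees of freedom. Sums and ratios per library were compared by exact permutation tests (SciPy 1.17.1). Positions and lengths come from RefSeq by symbol; 0 of its 49997 rows carry an Ensembl ID, so planned lists of nuclear and marker genes could not be looked up.

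All 10 genes are named whatever their values, with the non-members nearest to their summed level. Genes, lists and tests were chosen with earlier results of these data known. Alternatives were other scalings, filters and tools (DESeq2 1.42.0, limma-voom with limma 3.58.1), a replicate block and leaving out each library.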

Additional observations from a re-analysis of the deposited data

How the results depend on the processing

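Under the 16 alternatives run for each gene, 150 of 160 values kept their direction and their side of the threshold. The count of called genes among the 10 was 0 under every alternative scaling, filter and tool run, 1 with the replicate block (mt-Nd2, log2 0.45, edgeR adjusted p = 0.0346; mt-Co3 turned to -0.09), and 0 to 2 when 1 library was left out, the 2 being mt-Nd2 and mt-Nd6 without lean 3. The adjusted p ranged over the alternatives from 0.0346 to 0.262 for mt-Nd2, and from 0.0286 to 0.746 for mt-Nd6. mt-Nd4 was 0.00292 with total counts only. With 1 library left out, log2 fold changes ranged from -0.01 to 0.29 for mt-Co3, -0.22 to 0.16 for mt-Nd4, -0.19 to 0.06 for mt-Nd5 and -0.28 to 0.00252 for mt-Cytb, and complex IV over complex I from -0.19 to 0.01; the cause was not tested. Of all genes, 1179 to 3066 were then called: leaving out lean 2 gave 1179 and lean 3 gave 1541, while leaving out obese 1 gave 1461 and obese 4 gave 1956. The replicate numbers 1 and 3 occur in both groups, and no label pairs them. Deviations of like-numbered libraries correlated at 0.09 and 0.074, those of other pairs at -0.131 to 0.066, and 2 pairs do not settle whether a number pairs libraries; with the replicate block 2087 of all genes were called, and the summed level differed by -0.21, mt-Nd6 over the other genes by 0.31 and complex IV over complex I by -0.25. The alternatives for nuclear respiratory chain genes were not run, as no ID was matched to a symbol. Low counts, 45 to 116 in a library, limit the precision of the values for mt-Co2, mt-Atp6 and mt-Co3, and the reason for these low counts was not tested.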
